A study of Pyrus ussuriensis with 15 samples.

Results

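The deposited table of pear gene models holds 1869 models, of 44681 in all, with IDs of the form Novel00001 in place of a Pbr ID, and these are described here. They were taken by the form of the ID alone, and the other 42812 models are Pbr models. The ID sets them outside the Pbr annotation of the *Pyrus bretschneideri* genome, so they are called unannotated models below. The sources used here do not name the program or settings that built them, or the version of the genome on whose scaffolds the positions lie. The table pairs no ID with a description, so the models are described by structure, position and expression and no function is given for any of them.

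The study followed *Pyrus ussuriensis* Maxim, an Asian pear, through adventitious root development, and sequenced messenger RNA from 3 libraries on each of days 0, 3, 6, 9 and 12. All groups shared the same source and medium: adventitious buds subcultured for 25 days were rooted on 1/2 MS medium at pH 6.0 that held 0.5 mg/L IBA, 7.5 g agar and sucrose at 30 g/L. The labels give no other treatment or genotype and call the tissue adventitious roots on every day, day 0 included, while the title speaks of 4 stages. The labels do not say that the libraries of a day came from separate cultures, so a p-value sets a difference against the spread of these libraries, part of which may be technical, and each later day is compared with the same 3 day 0 libraries.

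Roots that form on stems or shoots, away from the seedling's own root system, are called adventitious, and auxins such as IBA (indole-3-butyric acid) are the usual means of inducing them in cuttings and shoot cultures. Models outside an annotation arise when reads map in places where the reference lists no gene. In plants such loci are known to include genes the annotation missed, long non-coding RNAs, transcripts from transposable elements, and untranslated ends or fragments of genes that are annotated. Reads of one pear species were placed here on the genome of another, and an annotation that lists coding sequence only leaves the ends of its transcripts unlabelled.

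The unannotated models were mostly built of several blocks. A model whose length equals its span on the scaffold is 1 block, and a model whose span exceeds its length has intervening bases, as introns would leave. Of the unannotated models, 1700 (91.0%) were multi-block and 169 (9.04%) were single-block, against 28.8% single-block among Pbr models. Their length ran from 193 to 9650 bases with a median of 1035 and quartiles of 689 and 1564. The Pbr median was 948 bases, but every Pbr length was a multiple of 3, so these are coding lengths and the medians are of different things. The median span was 1892 bases, against 1831 bases for Pbr models.

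The intervening bases, summed over a model, were fewer than in the annotation, and the length of single stretches was not measured. In multi-block unannotated models the bases outside the blocks came to a median of 698.5, against 1272 in Pbr models, and ranged up to 58202. In 65 of the 1700 multi-block unannotated models they came to under 50 bases in all, and in 6 to under 20 bases. The same counts among the 30502 multi-block Pbr models were 10 and 0. Both strands were used about equally, with 979 models (52.4%) on the plus strand and 890 on the minus strand, and the single-block models divided into 94 and 75. The models lay on 713 scaffolds, with up to 30 on 1 scaffold (scaffold1.0, which also holds 592 Pbr models), and 9 models began at base 1 or 2 of their scaffold.

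Most unannotated models lay beside a Pbr model and almost none over one. The nearest Pbr model was within 1000 bases for 587 models (31.4%), 1000 to 10000 bases away for 1048 (56.1%) and more than 10000 bases away for 213 (11.4%), where the distance is the number of bases between the ends of the spans. Another 10 models lay on scaffolds with no Pbr model. Only 11 overlapped a Pbr span at all, 10 on the same strand and 1 on the opposite strand, and none shared 50% or more of its own span. Since models outside an annotation arise where the reference lists no gene, few overlaps are likely from the start. Pbr lengths are coding lengths, so overlap with untranslated ends may go unseen. The distance to the nearest Pbr model had a median of 1945.5 bases and quartiles of 705 and 5077.75 over the 1848 models that had a neighbour and no overlap.

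Close neighbours were convergent more often than divergent, and those on the same strand, upstream and downstream together, outnumbered the convergent ones. Within 1000 bases, 236 of 587 unannotated models (40.2%) were convergent with the Pbr model, meaning that the 3′ ends face each other, and 77 (13.1%) were divergent. A further 132 (22.5%) lay downstream of a Pbr model on its own strand and 142 (24.2%) upstream of one. Among 9899 Pbr models with their own nearest Pbr model that close, 50.1% were convergent, 10.6% divergent, 19.0% downstream and 20.4% upstream. Beyond 10000 bases the unannotated models were divergent in 31.5% of cases and convergent in 18.8%.

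**Figure D1:**
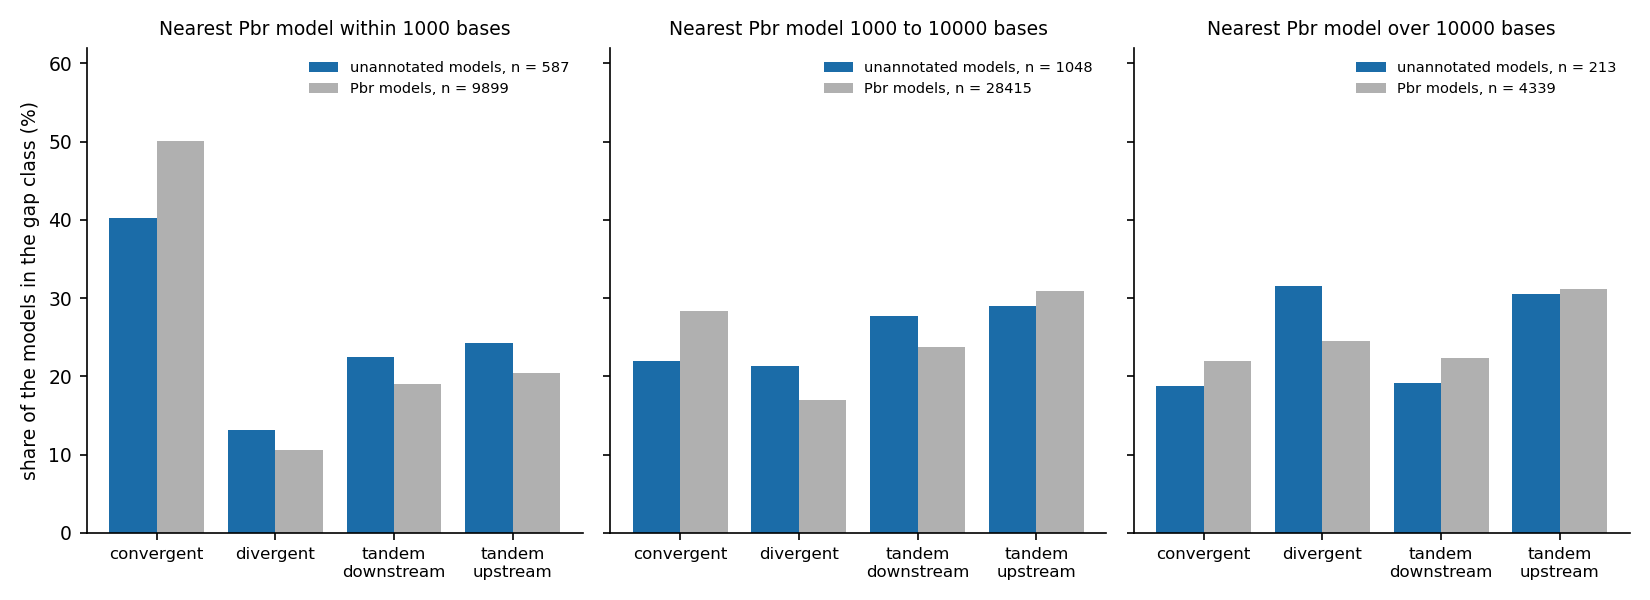
Share of models (y axis, percent) in each orientation relative to the nearest Pbr model (x axis), in 3 classes of distance, for unannotated models (blue) and Pbr models (grey). Within 1000 bases convergent neighbours are the largest single group in both sets, at 40.2% and 50.1%, with same-strand neighbours split into upstream and downstream.

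Some unannotated models lay over one another. There were 128 overlapping pairs among them, 107 on opposite strands and 21 on the same strand, and they took in 216 models. In 103 of the 107 opposite-strand pairs the shared bases came to at least 50% of the shorter span, and in 71 of them 1 span lay wholly within the other. All 57 unannotated models with no count in any library belonged to an opposite-strand pair. In the 71 nested pairs the inner model had no count in 33 cases and the outer model in 9. Of the 216 overlapping models 49.1% passed the filter on low counts, against 96.1% of the 1653 that overlapped no other unannotated model. The sources used here do not say whether counting used strand, so reads of opposite-strand partners may not have been told apart, and the part of counting in these zeros was not tested.

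Unannotated models also stood in runs with no Pbr model between them. Of the 1869 models 1406 stood alone, 170 runs held 2 models, and 37 runs held 3 or more and took in 123 models. The longest run had 6 models, on scaffold54.1.

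The unannotated models were expressed at low to moderate levels in nearly every library. A count was present in all 15 libraries for 1609 models (86.1%), against 63.2% of Pbr models, and no count in any library was found for 57 (3.05%) and 16.6%. Since models outside an annotation arise where reads map, counts in them are likely from the start, and these shares are not like for like. On the deposited FPKM scale, which relates counts to model length and library total, the mean over the 15 libraries had a median of 3.6 and quartiles of 1.33 and 9.64. The Pbr models spread more widely, with a median of 2.53 and quartiles of 0.0467 and 15.8. Among models that passed the filter on low counts the order was the reverse, with medians of 4.23 for unannotated and 10.1 for Pbr models. At least 1 FPKM was reached by 1502 unannotated models (80.4%), and at least 100 FPKM by 50 (2.68%), against 58.7% and 4.39% of Pbr models. Since the Pbr lengths hold no untranslated regions, these FPKM values rest on lengths of different kinds.

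Position went with level. Unannotated models within 1000 bases of a Pbr model had a median mean FPKM of 4.92, and those more than 10000 bases away 2.73. Single-block and multi-block models had medians of 3.38 and 3.65 FPKM. In the 1157 pairs in which the unannotated model and its nearest Pbr model were both tested, the unannotated model had the higher mean FPKM in 467 (40.4%), which was 47.6% of pairs within 1000 bases and 36% of those 1000 to 10000 bases apart.

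A few models carried much of the signal: the top 10 held 20.4% of all counts in unannotated models and the top 100 held 55.3%. The highest mean FPKM, 1605, was that of Novel01112 on scaffold425.0 (minus strand, 67530 to 69485, length 626), 604 bases from the convergent Pbr026381.1. Its FPKM was 1276, 1442 and 903 on day 0, 1680, 1601 and 1782 on day 3, 1684, 1917 and 1331 on day 6, 2443, 1838 and 1932 on day 9, and 1489, 1514 and 1245 on day 12. All 3 day 9 libraries lay above all 3 of day 0, and the log2 change was 0.90 (SE 0.172, adjusted p 0.000768, edgeR).

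Novel00471, second with a mean of 1566 FPKM (scaffold163.0, minus strand, 138949 to 140092, length 776), had 926, 805 and 1673 FPKM on day 0, 799, 818 and 1161 on day 3, 1459, 1266 and 1140 on day 6, 2854, 3548 and 3462 on day 9, and 1256, 1190 and 1135 on day 12. The day 9 libraries were above all 12 others, and the log2 change from day 0 was 1.65 (SE 0.246, adjusted p 0.000119). The next by mean FPKM were Novel00447 (761), Novel00920 (691) and Novel00521 (651), and all of the top 5 rose at day 9, by 0.62 to 1.65 on the log2 scale. Novel00447 and Novel00521 are short models of 315 and 312 bases.

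**Figure D2:**
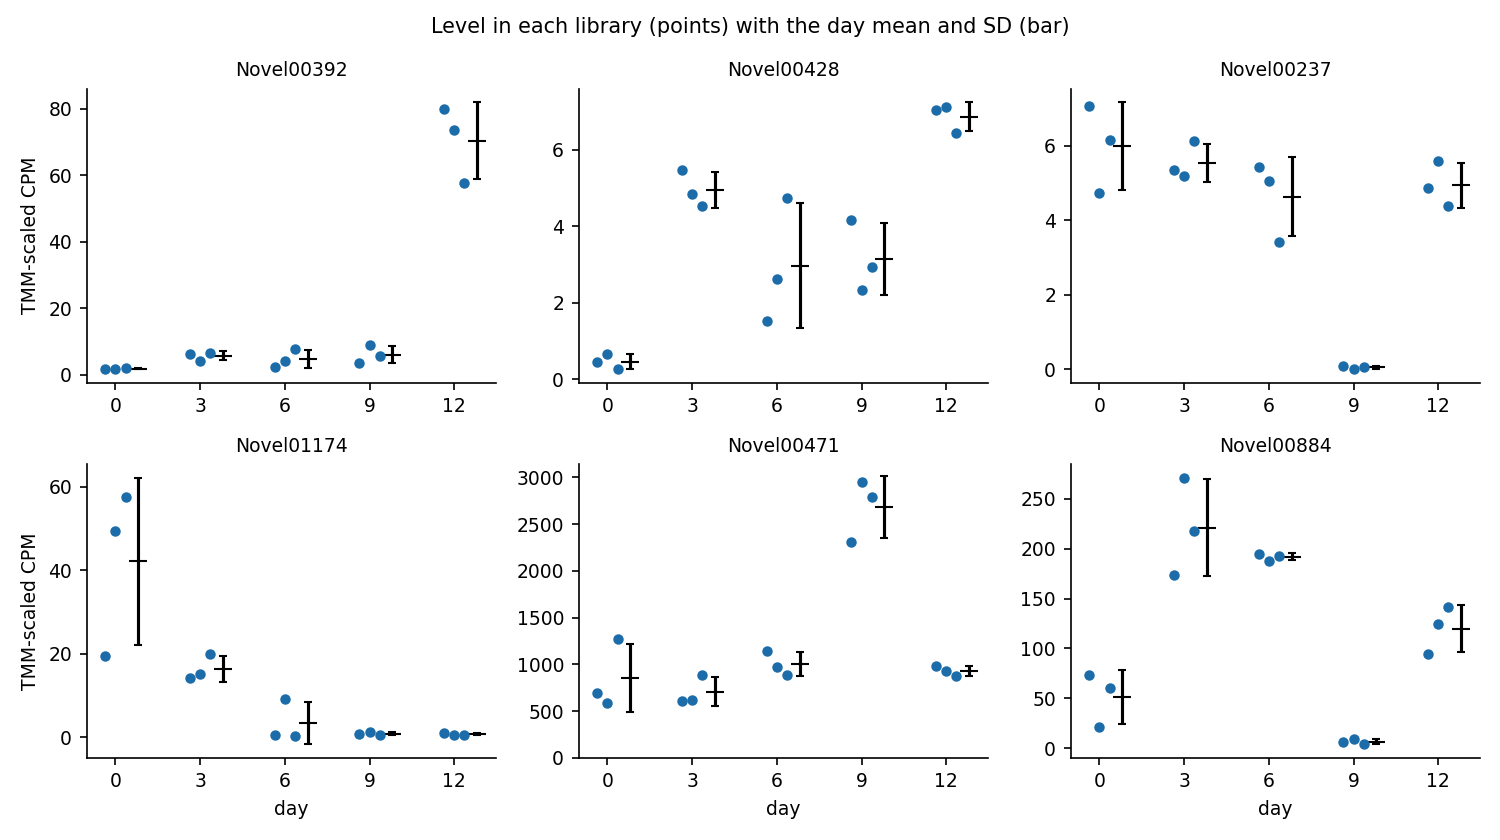
TMM-scaled CPM (y axis, linear, counts scaled to library total with TMM factors) of 6 unannotated models on each day (x axis). Points are the 3 libraries, and the bar beside them is the mean with the SD. Novel00392 is high on day 12, Novel00237 and Novel00884 are low on day 9, and Novel00471 is high on day 9.

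Day 9 stood apart in the sum over all unannotated models. They took 2.29% to 2.60% of the library total in the 12 libraries of days 0, 3, 6 and 12, and 2.93%, 3.17% and 3.03% in the 3 libraries of day 9, so the groups did not overlap. Without the 10 most abundant models the share was 1.87% to 2.07% on the other days and 2.20% to 2.39% on day 9. Library totals ran from 11953240 to 17878524 counts, with the lowest in day 9 replicate 2, and within a day the correlation of log2 levels between libraries ran from 0.939 to 0.985. In bulk tissue a change in the mix of cells and a change in RNA per cell cannot be told apart.

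Day 9 was also the most common day of highest expression. Of the 1694 unannotated models that passed the filter on low counts, out of 1869, 711 (42.0%) had their highest mean TMM-scaled CPM on day 9, against 30.2% of all 29134 models tested. Day 0 was highest for 14% (18.6% of all models), day 3 for 17.8% (17.3%), day 6 for 10.9% (12%) and day 12 for 15.3% (21.8%). On the deposited FPKM scale the day 9 shares were 37.1% and 25.8%. Day 9 was also the most common day of lowest expression, for 32.1% of unannotated models and 33.6% of all models. All 3 day 9 libraries were above the other 12 for 326 unannotated models (19.2%) and below them for 327 (19.3%), against 12.9% and 17.1% of all models tested.

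**Figure D3:**
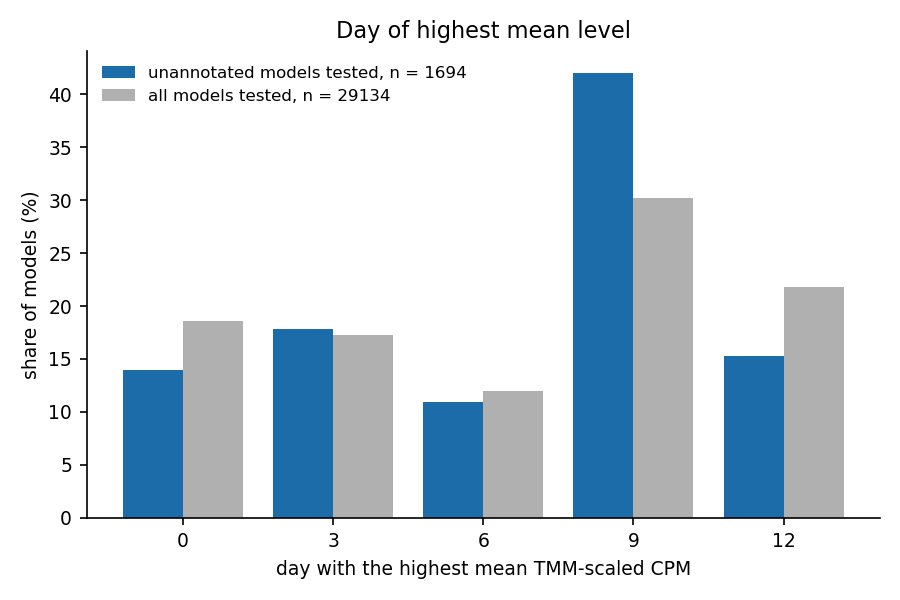
Share of models (y axis, percent) by the day on which their mean TMM-scaled CPM was highest (x axis), for the 1694 unannotated models tested (blue) and all 29134 models tested (grey). Day 9 leads in both, at 42.0% and 30.2%.

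Few unannotated models were called as changed on days 3 and 6. Counts here are of models called at an adjusted p under 0.05 in edgeR's quasi-likelihood test. At day 3, 35 were higher and 38 lower than on day 0, 4.31% of the 1694, against 9.36% of all models tested, of which 4.47% were higher and 4.9% lower. At day 6, 40 were higher and 41 lower, 4.78% against 9.56% of all models tested, of which 5.3% were higher and 4.26% lower. The quartiles of the log2 change were -0.254 and 0.2845 at day 3, against -0.282 and 0.251 over all models tested. At day 6 they were -0.221 and 0.295, against -0.2455 and 0.264. Tested unannotated models had a median summed count of 937, against 2634.5 for tested Pbr models. The part of this difference in the shares called, here and on later days, was not tested.

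These early counts moved both ways with single libraries. The totals over all models tested moved in the same directions and are given in brackets. The day 3 total of 73 (2728) became 25 (1053) when replicate 2 of day 0 was left out and 36 (1339) when its replicate 3 was. Leaving out replicates 1, 2 and 3 of day 3 in turn gave 37, 28 and 38 (1487, 1005 and 1488). Leaving out replicates 1, 2 and 3 of day 6, which enter the shared estimate of spread, gave 111, 95 and 104 (3892, 3410 and 3829). These last refits were added after seeing the data. The day 6 total of 81 (2785) became 22 (1110) when replicate 2 of day 0 was left out. It became 127 (4381) and 51 (2196) when replicates 1 and 3 of day 6 were. With the libraries of days 0 and 6 alone in the fit it was 1 (25), and DESeq2 called 122 (4161) at day 3 and 133 (4084) at day 6.

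Day 9 changed about as many unannotated models up as down. Against day 0, 439 were higher and 429 lower, 51.2% together, against 49.7% of all models tested (23% higher and 26.7% lower). A change of at least 2-fold was called higher in 223 (13.2%) and lower in 313 (18.5%), against 9.29% and 14% of all models tested. The median log2 change of the unannotated models was 0.108, with quartiles of -0.762 and 0.721, and that of all models tested was -0.0242. Removing each library's trend of level on model length moved the median of all models to 0.0849, the unannotated calls to 468 higher and 367 lower, and the calls over all models from 6710 higher and 7776 lower to 7103 and 5446.

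At day 12 the unannotated models were closer to day 0 again. There 111 were higher and 147 lower, 15.2% of those tested against 22.6% of all models (11.6% higher and 11% lower). The total of 258 was 167 without day 12 replicate 2, and that of all models went from 6581 to 4617. From day 6 to day 9, 376 were higher and 376 lower (44.4% against 39.6% of all models, 17.8% higher and 21.8% lower), and from day 9 to day 12, 422 were higher and 478 lower (53.1% against 48.9% of all models, 26.4% higher and 22.5% lower). Of the 615 models called on both of these steps, 326 (19.2% of those tested) fell and then rose and 283 (16.7%) rose and then fell, against 17.1% and 12% of all models tested, where both steps share the day 9 libraries. Over the course as a whole 1061 unannotated models were called, 62.6% against 65.8% of all models tested.

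**Figure D4:**
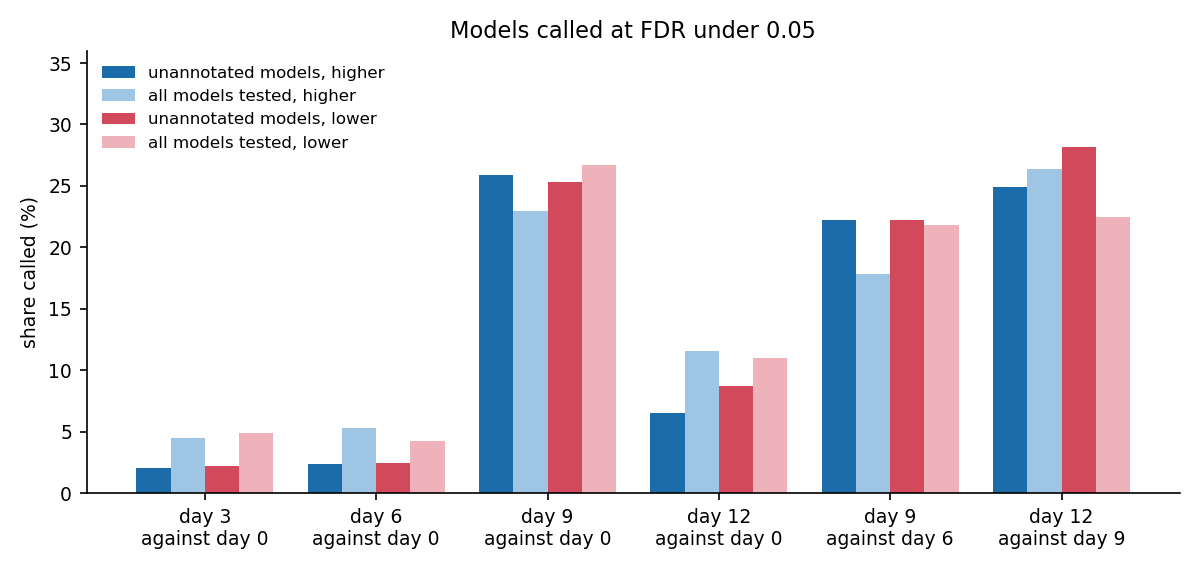
Share of models called at an adjusted p under 0.05 (y axis, percent) in each comparison (x axis), higher (blue) and lower (red), with unannotated models in the dark shade and all models tested in the pale shade. The shares are far higher in the 3 comparisons that involve day 9 than on days 3 and 6.

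The models named below for a comparison have the largest changes among those called whose mean log2 CPM is 1 or more and whose libraries do not overlap, and scarcer models can have larger fitted changes. Novel00428 rose on every later day. This model (scaffold157.0, plus strand, 217977 to 219780) lies 12333 bases from its nearest Pbr model. Its TMM-scaled CPM was 0.442, 0.657 and 0.273 on day 0, 5.46, 4.84 and 4.54 on day 3, 1.53, 2.63 and 4.75 on day 6, 4.17, 2.33 and 2.93 on day 9, and 7.03, 7.13 and 6.44 on day 12. Every later library was above every day 0 library. The log2 changes from day 0 were 3.41 (SE 0.414, adjusted p 0.00126), 2.69 (adjusted p 0.00231), 2.76 (adjusted p 0.000137) and 3.88 (adjusted p 2.69e-05). With the libraries of days 0 and 6 alone in the fit the day 6 adjusted p was 0.0903.

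The other early rises were less even. Novel01867 (scaffold994.0, minus strand, 111972 to 114843) had 0.695, 0 and 0 CPM on day 0, 2.88, 3.16 and 1.24 on day 3 and 8.21, 7.64 and 5.61 on day 12, with no overlap between either day and day 0. It rose by 3.31 at day 3 (SE 0.754, adjusted p 0.0188) and by 4.86 at day 12 (SE 0.745, adjusted p 0.000436), and the day 3 call was lost when replicate 2 or 3 of day 0 or replicate 2 of day 3 was left out, with adjusted p from 0.0504 to 0.062, and with those days alone in the fit (0.0839). Novel01627 (scaffold742.0, minus strand, 99464 to 101175) had 0.695, 1.12 and 3.14 CPM on day 0 and 3.90, 5.51 and 70.1 on day 6, with no overlap. Its log2 change of 4.01 (adjusted p 0.0189) rests on day 6 replicate 3, without which it was 1.53 (adjusted p 0.0684), and the call was also lost without replicate 1 or 2 of day 0 (0.0622 and 0.0872) and with those days alone in the fit (0.212).

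Among the early falls, Novel00284 (scaffold128.0, plus strand, 635750 to 638496) had 4.49, 10.9 and 11.4 CPM on day 0 and 2.10, 1.28 and 2.75 on day 3, and all later libraries stayed at or under 3.53. It fell by 2.12 on the log2 scale at day 3 (SE 0.434, adjusted p 0.0114) and by 2.50 at day 12 (adjusted p 0.00123), and the day 3 adjusted p was 0.0537 without day 3 replicate 2. Novel00692 (scaffold229.0) had 5.50, 4.99 and 3.35 CPM on day 0 and 1.32, 1.35 and 0.344 on day 3, a log2 change of -2.18 (adjusted p 0.0367) that was not called when any 1 of these 6 libraries was left out.

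At day 6 the falls named by this rule were those of Novel01174 and Novel01583. Novel01174 (scaffold455.0, plus strand, 291195 to 292749) had 19.5, 49.5 and 57.5 CPM on day 0, 14.2, 15.2 and 20 on day 3, 0.612, 9.23 and 0.290 on day 6, 0.820, 1.25 and 0.587 on day 9, and 1.05, 0.684 and 0.611 on day 12. Days 9 and 12 lay below every library of days 0 and 3, and the log2 change was -3.63 at day 6 (SE 0.808, adjusted p 0.0146, and 0.201 with those days alone in the fit) and -5.59 at day 9 (adjusted p 0.000324). Of its summed day means 66.2% fell on day 0, the largest day 0 share of any unannotated model of mean log2 CPM 1 or more. Novel01583 (scaffold71.0) had 3.73, 12.3 and 13.3 CPM on day 0 and 0.153, 3.40 and 0.984 on day 6, a change of -2.67 (adjusted p 0.0309) that was lost when replicate 2 or 3 of day 0 or replicate 3 of day 6 was left out, with adjusted p from 0.0779 to 0.1, and with those days alone in the fit (0.236).

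The 2 models named for their falls at day 9 were nearly absent there and back at day 12. Novel01035 (scaffold383.0, minus strand, 300212 to 304543, length 834) had 8.15, 4.66 and 11.1 CPM on day 0, 7.32, 10.3 and 7.37 on day 3, 8.34, 9.23 and 10.5 on day 6, 0, 0.0896 and 0.0652 on day 9, and 6.50, 8.50 and 10.1 on day 12. Day 9 held 2 counts in all and day 0 held 362, a ratio of 158 with an exact 95% interval of 43.5 to 1311 for counting error only. The fall from day 0 was called (adjusted p 4.55e-07), as was the rise from day 9 to day 12 (adjusted p 2.75e-07).

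Novel00237 (scaffold1200.0, plus strand, 39095 to 42201) had 7.08, 4.73 and 6.15 CPM on day 0, 5.34, 5.18 and 6.13 on day 3, 5.43, 5.06 and 3.42 on day 6, 0.0745, 0 and 0.0652 on day 9, and 4.86, 5.59 and 4.38 on day 12. Its 2 day 9 counts stood against 274 on day 0, a ratio of 120 (exact 95% interval 32.8 to 993, counting error only), and the fall was called (adjusted p 1.24e-07). The whole of its span lies within that of Novel00238 on the opposite strand (38512 to 42201), which had 1.71, 1.18 and 1.71 CPM on day 0, no count in any day 9 library, and 1.31, 0.913 and 1.72 on day 12. Taking 3 counts over the day 9 group as its upper limit, Novel00238 was at least 20.4-fold lower there than on day 0. Novel00238 was named after its values were seen.

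Rises at day 9 are shown by Novel00832 and Novel00502. Novel00832, a single-block model of 2182 bases (scaffold296.0, plus strand, 145117 to 147298) and 12184 bases from the nearest Pbr model, had 88.2, 68.9 and 150 CPM on day 0, 98.7, 105 and 101 on day 3, 321, 93.4 and 394 on day 6, 808, 1295 and 824 on day 9, and 374, 377 and 329 on day 12. The day 9 libraries were above all 12 others, and the log2 change from day 0 was 3.25 (SE 0.436, adjusted p 5.01e-05). Novel00502 (scaffold171.0, plus strand, 105037 to 105720) had 2.97, 4.27 and 36.7 CPM on day 0 and 212, 334 and 122 on day 9, which do not overlap, a change of 3.93 (SE 0.815, adjusted p 0.00141).

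For rises from day 6 to day 9 the rule named Novel00395 and Novel01409. Novel00395 (scaffold15.0) had 0.306, 0.449 and 0.290 CPM on day 6 and 3.06, 5.29 and 4.24 on day 9, a change of 3.56 (adjusted p 0.00982). It had 4.32, 0.269 and 3.99 CPM on day 3 and 3.68, 1.14 and 0.5 on day 12, and both days overlap day 9. Novel01409, a single-block model on scaffold603.0, had 3.21, 3.21 and 1.97 CPM on day 6 and 19.6, 61.1 and 6.85 on day 9, a change of 3.38 (adjusted p 0.00779). Its 3 day 0 libraries, at 33.3, 10.4 and 10.2 CPM, overlap those of day 9.

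Day 12 was marked by Novel00392. This model (scaffold15.0, plus strand, 1270457 to 1271583, length 1032) had 1.71, 1.90 and 1.91 CPM on day 0, 6.36, 4.17 and 6.68 on day 3, 2.37, 4.10 and 7.82 on day 6, 3.58, 8.87 and 5.80 on day 9, and 80.0, 73.7 and 57.7 on day 12. All later libraries were above day 0 and those of day 12 stood far above the rest, with 79.3% of the summed day means on that day. The log2 change at day 12 was 5.25 (SE 0.417, adjusted p 2.37e-06). Its nearest Pbr model, Pbr008341.1, lies 3412 bases away in divergent orientation and had a fitted log2 change of 5.92 at day 12 and 2.35 at day 9, beside 1.71 at day 9 for Novel00392.

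Of the models named for falls to day 12, Novel00461 and Novel00397 were nearly absent there and Novel01259 was still counted in every library. Novel00461 (scaffold161.0, plus strand, 410504 to 411301) had 3.16, 5.78 and 2.05 CPM on day 0, 2.76, 1.61 and 2.54 on day 9 and 0, 0 and 0.0555 on day 12, so that 168 counts on day 0 stood against 1 on day 12 (adjusted p 1.82e-05), a ratio of 187 with an exact 95% interval of 33.1 to 7419 for counting error only. Novel01259 (scaffold50.0, minus strand, 127780 to 129797) had 975, 663 and 54.7 CPM on day 0, 714, 426 and 348 on day 3, 111, 510 and 35 on day 6, 65.6, 55.5 and 256 on day 9, and 2.76, 2.68 and 2.28 on day 12. It varied more than 10-fold among libraries of day 0 and of day 6, while day 12 was low in all 3, and the log2 change was -7.78 (SE 1.31, adjusted p 0.00085). Novel00397 (scaffold15.0) had 4.25, 3.94 and 4.70 CPM on day 9 and 0.131, 0 and 0 on day 12, a ratio of 110 (exact 95% interval 30.0 to 916, adjusted p 1.08e-06).

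Called on all 4 later days in 1 direction were 8 unannotated models, 2 higher (Novel00392 and Novel00428) and 6 lower (Novel00281, Novel00284, Novel00299, Novel00539, Novel00646 and Novel01649). These are 0.118% and 0.354% of those tested, against 0.721% and 1.09% of all models tested, and each of those calls uses the same day 0 libraries. Their day 6 calls depend on the fit. With the libraries of days 0 and 6 alone, 1 unannotated model was called, lower (25 of all models). The day 6 adjusted p of Novel00392 in edgeR with all libraries was 0.0496. Novel00281 had 43.1, 43.5 and 36.9 CPM on day 0, and its 12 later libraries lay between 14.4 and 28.3. Novel00539 had 15.4, 18.1 and 19.1 CPM on day 0 and between 6.71 and 13.2 in the later libraries. Both were below day 0 in all 12 later libraries, and these models other than the named Novel00284, Novel00392 and Novel00428 were chosen after their values were seen.

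Some models had no count on a day and at least 10 counts in each library of another day. At 0 in all 3 day 9 libraries and with at least 10 counts in each day 12 library were 6 unannotated models, among 51 of all models in the table. Of these Novel01256 was at least 16.5-fold higher on day 0 than on day 9, with day 9 set to 3 counts over the group. With day 3 in place of day 12 the number was also 6, among 19 of all models. At 0 on day 0 and with at least 10 counts in each day 12 library were 2, among 43 of all models. Novel00102, at 2.63, 2.79 and 2.22 CPM on day 12, was at least 38.8-fold higher there than on day 0, and Novel01571, at 0.985, 1.20 and 1.28 CPM, at least 17.6-fold. Novel01215, at 0.695, 2.23 and 1.43 CPM on day 0 and with no count on day 12, was at least 24.6-fold lower on day 12. These 4 models were chosen for this pattern after their values were seen, so no test is given.

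Some of the largest day shares rest on 1 library. Novel00763 (scaffold267.0) has 72.5% of its summed day means on day 9, where its libraries were at 0.373, 22.9 and 0.522 CPM, and Novel00986 (scaffold364.0) has 50% on day 3, at 32.8, 3.83 and 7.44 CPM. In both, 1 library is high and the others lie in the range of the other days or close to it.

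Day 9 calls are given here by place and structure, beside 23% higher and 26.7% lower over all models tested, and the differences between classes were not tested. Convergent unannotated models were higher in 134 (29.3%) and lower in 83 (18.2%) of 457 tested, and divergent ones in 81 (24.4%) and 80 (24.1%) of 332. Those downstream of a Pbr model on its own strand were higher in 104 (25.4%) and lower in 86 (21%) of 409, while those upstream were higher in 116 (24.4%) and lower in 171 (36%) of 475. Single-block models were higher in 37 (24%) and lower in 56 (36.4%) of 154, and multi-block ones in 402 (26.1%) and 373 (24.2%) of 1540. Tested models up to the lower quartile of length had 125 higher (29.5%) and 114 lower (26.9%) of 424, and those from the upper quartile 63 (14.9%) and 141 (33.3%) of 424. By strand the counts were 233 (26.2%) and 224 (25.2%) of 890 on plus and 206 (25.6%) and 205 (25.5%) of 804 on minus.

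Models that follow each other on the same strand were compared pair by pair. There were 193 pairs of an unannotated model and its nearest Pbr model, both tested, on the same strand and within 1000 bases. At day 9 the log2 change of the partner nearer the 3′ end minus that of the partner nearer the 5′ end had a median of 1.14, with quartiles of 0.12 and 2.16, and it was above 0 in 150 of 193 pairs (77.7%). On the other later days this median lay close to 0: -0.111 (day 3), -0.00408 (day 6) and -0.0529 (day 12). This comparison was added after the data were seen and is a description.

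The shift held whichever partner was unannotated. Where the unannotated model was the 5′ partner (109 pairs), the median was 1.17 and those models were higher at day 9 in 19 (17.4%) and lower in 61 (56%). Where it was the 3′ partner (84 pairs), the median was 0.968 and those models were higher in 30 (35.7%) and lower in 13 (15.5%). By library, the median shift of the log2 ratio of 3′ to 5′ partner from its day 0 mean was 0.913, 1.25 and 0.971 on day 9 and between -0.169 and 0.084 in the other 12 libraries, so day 9 stood apart in each library.

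Distance and annotation went with its size. In 378 same-strand pairs that lay 1000 to 10000 bases apart the day 9 median was 0.274, and in 55 pairs over 10000 bases apart it was -0.211. In 779 same-strand pairs of neighbouring Pbr models within 1000 bases it was 0.514, with library shifts of 0.482, 0.476 and 0.542, and there the 5′ partners were higher in 126 (16.2%) and lower in 331 (42.5%) and the 3′ partners in 202 (25.9%) and 162 (20.8%). With the length trend removed the median of the 193 pairs was 0.993. No measure of RNA quality or of coverage along transcripts was used here, so their part in the day 9 shift was not tested.

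**Figure D5:**
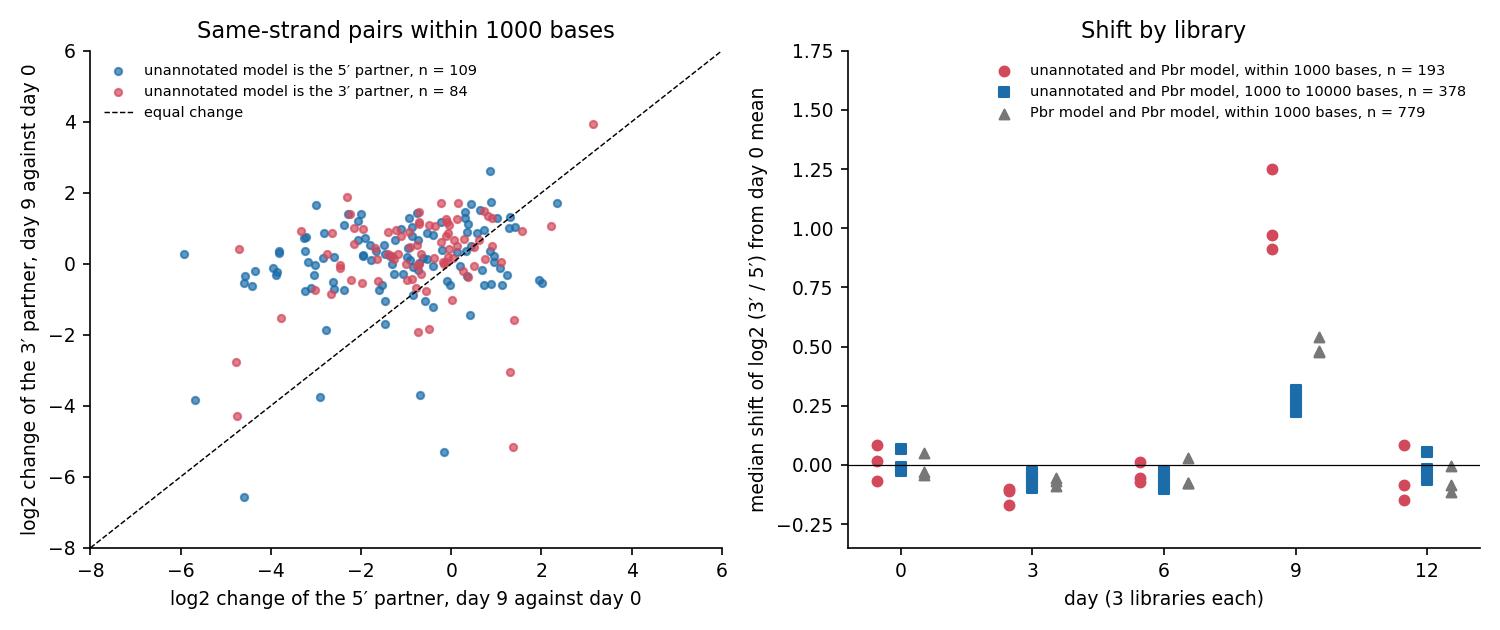
Left, log2 change from day 0 to day 9 of the 3′ partner (y axis) against that of the 5′ partner (x axis) in the 193 same-strand pairs within 1000 bases, coloured by which partner is unannotated, with a dashed line of equal change. Right, median shift of the log2 ratio of 3′ to 5′ partner from its day 0 mean (y axis) in each library by day (x axis), for 3 sets of pairs: in the 193 pairs the 3 day 9 libraries lie at 0.913 to 1.25, above all others.

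Pairs of abundant models are given library by library, some with the shift and some without it, and these were picked after their values were seen. Novel00884 (scaffold313.0, plus strand, 44994 to 46096, length 504) ends 41 bases before Pbr021032.2 (46138 to 50011). Its CPM was 73.0, 20.9 and 60.3 on day 0, 174, 271 and 218 on day 3, 195, 188 and 193 on day 6, 5.96, 9.41 and 4.11 on day 9, and 94.2, 124 and 141 on day 12. Day 9 was below all other libraries, at a log2 change of -3.00 (SE 0.408, adjusted p 5.66e-05), after rises of 2.10 at day 3 and 1.90 at day 6.

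Pbr021032.2 rose with it on days 3 and 6, by 2.02 and 1.96, but stood at 2436, 4317 and 2375 CPM on day 9 against 1270, 547 and 1063 on day 0. The groups do not overlap, and its change at day 9 was 1.66 (SE 0.28, adjusted p 0.000308). At day 12 the partners had similar changes again, 1.22 for Novel00884 and 1.29 for Pbr021032.2.

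The reverse arrangement is shown by Novel00565 (scaffold193.0, plus strand, 538847 to 539787), which begins 723 bases after the end of Pbr012573.1, the longest coding model in the table at 16572 bases. Novel00565 had 55.7, 64.0 and 49.5 CPM on day 0 and 82.9, 81.3 and 87.4 on day 9, and rose by 0.57 (SE 0.143, adjusted p 0.00483). Pbr012573.1 had 298, 199 and 321 CPM on day 0 and 54.8, 61.7 and 66.0 on day 9, and fell by 2.16 on the log2 scale (SE 0.268, adjusted p 2.62e-05). In neither model do the days overlap.

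Some close pairs changed together and others parted. Novel00502, described above, begins at the base after the end of Pbr010509.1 (104266 to 105036), and at day 9 Novel00502 rose by 3.93 and Pbr010509.1 by 3.14 (SE 0.729, adjusted p 0.003). Pbr010509.1 had 12.3, 13.1 and 102 CPM on day 0, and day 0 replicate 3 was the high library in both models. Novel01161 (scaffold451.0, minus strand, 90163 to 90378, length 216) fell by 1.25 at day 9 (adjusted p 0.00138) while Pbr027478.1, which follows it after 431 bases, rose by 0.68 (adjusted p 0.0136). Novel00959 and its 3′ partner Pbr022902.1 did not part, with day 9 changes of 0.32 (adjusted p 0.33) and 0.36 (adjusted p 0.033). Novel00026 went against the shift: as the 3′ partner it fell by 0.37 (adjusted p 0.029). Its 5′ partner Pbr000246.9 had a change of 0.37 (adjusted p 0.0811).

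Over all orientations, pairs of an unannotated model and its nearest Pbr model were compared by direction. Among pairs with both models called, a larger share moved the same way at day 12 than at day 9, a difference that was not tested. Of the 1157 pairs with both models tested, both were called at day 12 in 67, in the same direction in 53 (79.1%). At day 9 both were called in 312, in the same direction in 165 (52.9%). At day 3 both were called in 11 pairs, all in the same direction. These shares were not taken for pairs of neighbouring Pbr models, so they are not shown to be particular to unannotated models. At day 12 the Pbr neighbour was higher for 38.0% of the unannotated models that were higher, against 11.1% over all pairs, and at day 9 these shares were 23.3% and 20.2%. For 527 tested unannotated models the nearest Pbr model did not pass the filter on low counts.

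In the run of 6 unannotated models on scaffold54.1, neighbours changed in opposite directions at day 9. Novel01312 (minus strand, 93605 to 94442) had 16.4, 11.5 and 11.3 CPM on day 0 and 0.969, 1.08 and 1.76 on day 9, a log2 change of -3.34 (adjusted p 3.38e-07). Novel01313 (minus strand, 95150 to 96580) had 15.9, 14.1 and 15 CPM and 1.49, 1.97 and 2.35, a change of -2.94 (adjusted p 1.57e-07). Both lie inside the span of Novel01308 on the plus strand (89696 to 104855), which rose by 0.54 (adjusted p 0.0102), and inside that of Novel01311 on their own strand (89961 to 113633), which rose by 0.99 (adjusted p 0.0471). Novel01309 had an adjusted p of 0.534 at day 9, and Novel01310 had 3 counts over all 15 libraries and was not tested. These 6 models were named for the length of their run, after their values were seen.

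In the run of 5 on scaffold667.0, the 3 tested models all fell at day 9. Novel01494 had 5.31, 4.73 and 4.99 CPM on day 0 and 0.671, 0.448 and 0.196 on day 9, a log2 change of -3.52 (adjusted p 3.83e-06). Novel01496 changed by -2.43 (adjusted p 1.49e-06) and Novel01498 by -2.07 (adjusted p 0.000157). The spans of Novel01494 and Novel01496 overlap on the plus strand, so reads may be shared between them. In the other run of 5, on scaffold163.0, Novel00474 rose by 2.15 (adjusted p 0.00103) and Novel00470 by 1.44 (adjusted p 0.038), while Novel00469 changed by -1.20 (adjusted p 0.000187) and Novel00475 by -1.72 (adjusted p 0.0151). Novel00476 had a log2 difference of 0.41 (adjusted p 0.245). These models too were named for their run, after their values were seen.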

How the data were processed

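The authors deposited 1 table with position, strand, length, read count and FPKM of each model in 15 libraries. Counts are whole, not normalized, per the file headers and the values, and FPKM is the authors' deposited scaling to length and library total. Per the labels, 1 µg of total RNA entered a TruSeq kit. The series' design text names a HiSeq 2000 and, as reference, the *P. bretschneideri* genome. HISAT is named per the submitters' processing notes. The sources used here give neither its version nor those of the genome and counting program. Near-identical copies may have exchanged reads.

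Counts were fitted over the whole table with edgeR 4.0.16 in R 4.3.3 (filterByExpr, TMM, glmQLFit, glmQLFTest, all 15 libraries), with Benjamini-Hochberg adjustment over the 29134 models tested. The standard error of a log2 change is its size over the square root of F. Residual degrees of freedom were 10, and the common biological variation between libraries (BCV) was 22.98%. In simulated counts for day 9 against day 0 over 28733 models, 49% of 100 models changed 2-fold and 87% of 100 changed 4-fold were recovered. No other model was changed there, while 49.7% of all models tested were called at day 9 in the data. The simulated shares therefore do not measure recovery in the data. Named models are, per comparison, the 2 largest rises and 2 largest falls among called unannotated models whose mean log2 CPM was 1 or more and whose libraries do not overlap, the top 5 by FPKM, the most abundant of each position class, and the model with the largest share on each day. The members, lists and rules were chosen with earlier results of these data known. Alternatives were DESeq2 1.42.0, RLE factors, other filters, a length trend (lowess span 0.3), a replicate block, and leaving out libraries. No genome or gene name table was used here and no sequence is printed.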

Additional observations from a re-analysis of the deposited data

How the results depend on the processing

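Of the 24 log2 changes of named models, none changed sign under any alternative, and calls were lost in 16 of 144 refits without 1 library of the compared days and 5 of 24 fits of the compared days alone. With 1 library of the compared days left out (any of the 15 for the course), the number of unannotated models called ranged from 25 to 69 at day 3 (73 with all), 22 to 127 at day 6 (81), 737 to 803 at day 9 (868) and 167 to 218 at day 12 (258) against day 0, from 632 to 760 for day 9 against day 6 (752), from 745 to 820 for day 12 against day 9 (900) and from 933 to 1119 over the course (1061). Over all models tested these ranges were 1005 to 2448 at day 3 (2728), 1110 to 4381 at day 6 (2785) and 12495 to 13178 at day 9 (14486). At day 12 the range was 4617 to 5721 (6581). For day 9 against day 6 it was 9556 to 12200 (11535), for day 12 against day 9 11792 to 12946 (14243), and over the course 17238 to 20688 (19159). With any 1 of the 15 libraries left out, which was added after seeing the data, the upper ends for unannotated models were 111 at day 3, 914 at day 9, 288 at day 12 and 935 for day 12 against day 9. Each was without replicate 1 of day 6, where all models gave 3892, 15477, 7596 and 15117, and the lower ends were the same. DESeq2 called 122 at day 3 and 133 at day 6 (4161 and 4084 of all models), and the fit of days 0 and 6 alone called 1 (25 of all models). The share highest at day 9 was 42.0%, 37.1% on deposited FPKM and 45.3% without the length trend. Over all models tested these shares were 30.2%, 25.8% and 33.4%. Of the 11 models that overlap a Pbr model, 0 share 50% of their span. The day 9 median of same-strand pairs, 1.14, ran from 0.984 to 1.15 over its alternatives, which were chosen after seeing the data. Same-numbered libraries of different days deviated together little or not at all (30 correlations from -0.0816 to 0.166, median -0.00122), so replicate numbers were not used as pairs. Between days 0 and 6 the same-numbered correlations were 0.133, 0.166 and 0.0914, and the others ran from -0.193 to 0.0572. With the replicate number as a block the counts were 62, 70, 839 and 246 for days 3, 6, 9 and 12 against day 0. They were 735 and 887 for the later steps and 1026 for the course, and no call of a named model was lost. Over all models tested the block fit called 2405, 2513, 14282 and 6396 against day 0. It called 11257 and 14047 of all models for the later steps and 18558 for the course. The causes of these differences were not tested.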

Other observations

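Single models of the position classes with few members had these values. Novel01105, the most abundant of the 10 that overlap a Pbr model on the same strand (scaffold419.0, minus strand, 307232 to 320241), had 61.3, 67.4 and 64.6 CPM on day 0, 111, 139 and 111 on day 9 and 34.4, 39 and 23.7 on day 12, and fell by 1.90 on the log2 scale from day 9 to day 12 (adjusted p 4.2e-06, edgeR). Novel01341, the only one that overlaps a Pbr model on the opposite strand (scaffold566.0, plus strand, 130252 to 171555), stayed between 33.1 and 52.1 CPM in all 15 libraries. Its day 12 libraries lay below all others, at a log2 change from day 0 of -0.31 (adjusted p 0.0231). Novel00547, on a scaffold with no Pbr model (scaffold1831.0, plus strand, 4297 to 5512), had 11 to 18.2 CPM in the 12 libraries of days 0, 3, 6 and 12 and 3.95, 2.24 and 3.06 on day 9, a change of -2.25 from day 0 (adjusted p 3.54e-06).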
